A study of Mus musculus with 8 samples.

Results

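Genes for the COPI and COPII vesicle coats and their cargo receptors were examined in white adipose tissue from mice lacking Sel1l in fat and from control mice. The set was a list of 43 genes named by their role, of which 41 were measured by a probe set of their own among 18820 genes in all, and Tmed1 and Ergic2 were not analysed here. Each gene was read from its brightest single-gene probe set. The 4 Sel1l-/- mice carried floxed Sel1l alleles and a Cre recombinase under the promoter of adiponectin, an adipocyte hormone, and the 4 wildtype (WT) mice were the controls. All 8 were males of a mixed C57BL/6N and C57BL/6J background that had eaten the high fat diet D12492 for 5 weeks, 1 mouse and 1 array each. The labels do not state their age, the fat depot or whether the controls carried floxed alleles or Cre. The deletion was directed at adipocytes, and Sel1l in the other cells of the tissue was not measured separately. Values are log2 expression from arrays normalized by RMA, and the number of arrays limits the precision.

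Proteins made in the endoplasmic reticulum (ER) leave it in vesicles coated with COPII, which Sar1 GTPases build from Sec23, Sec24, Sec13 and Sec31 at sites marked by Sec16. COPI, a coatomer recruited by Arf GTPases, carries escaped ER residents and the transport machinery back from the Golgi. Cargo receptors of the p24, KDEL receptor and lectin families select what rides in these vesicles, and SNARE proteins fuse them with their target. Adipocytes use this route to secrete hormones such as adiponectin and enzymes such as lipoprotein lipase. SEL1L partners the ubiquitin ligase HRD1 in the removal of misfolded proteins from the ER. Several coat genes are known targets of the unfolded protein response, the programme that cells start when misfolded proteins accumulate in the ER.

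Of the 41 measured genes, 13 rose in Sel1l-/- adipose tissue and none fell at a limma adjusted p under 0.05, where 1.04% of all 18820 genes rose and 0.685% fell. Among the brighter 50% of genes, where all 41 lie, 1.82% rose. The set is brighter than that group too, with a median at percentile 95.3 of mean expression and 35 of the 41 genes above percentile 80. The genes that rose were Copa, Copb2, Copg1 and Cope of the coatomer, Sec23a and Sec31a of the COPII coat, Arf4 and Gbf1, the p24 proteins Tmed3 and Tmed9, the receptors Kdelr2 and Kdelr3, and the SNARE Sec22b. Their changes ran from 1.25-fold to 1.64-fold, and no gene of the set reached 2-fold. The log2 difference was positive for 36 of the 41 genes (34 after median centring of the arrays, which turned Copg2 and Kdelr1), with a median of 0.25, against a median of -0.00 over all genes. At an unadjusted p under 0.05, limma had 26 genes higher and 1 lower, Tmed4, where 7.15% of all genes were higher and 7.85% lower. All 4 Sel1l-/- arrays lay above all 4 WT arrays for 23 genes, where 5.22% of all genes did so, and no gene of the set had all Sel1l-/- arrays below.

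**Figure D1:**
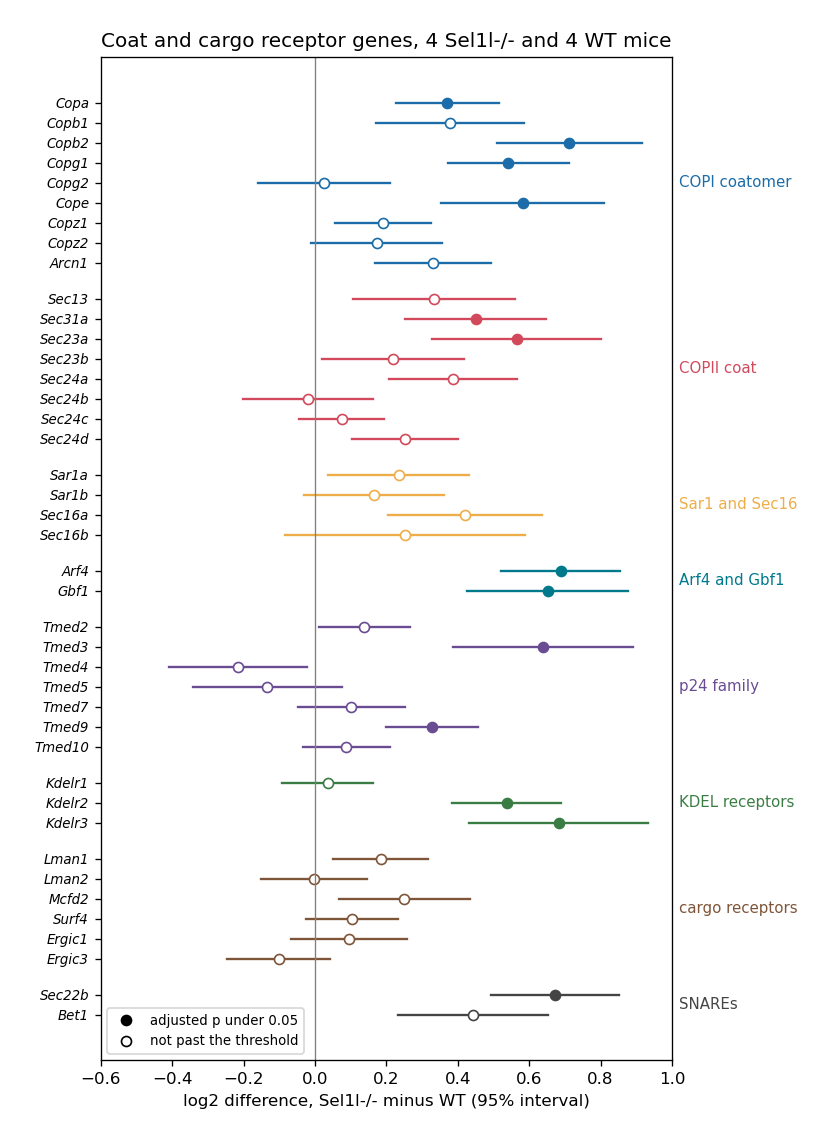
Log2 difference between Sel1l-/- and WT mice for the 41 measured genes, grouped by role; points are limma estimates from 4 mice per group, lines are 95% intervals, and filled points passed an adjusted p of 0.05. The 13 filled points all lie to the right of 0, and the interval of Tmed4 alone lies wholly to the left.

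Sel1l itself was read first as a check of the labels, although the labels name neither the deleted exons nor where its probes lie. It read 9.56, 9.78, 9.72 and 10.07 in Sel1l-/- mice 1 to 4, against 10.48, 10.57, 10.58 and 10.65 in WT mice 1 to 4, a log2 difference of -0.79 (standard error 0.10, adjusted p = 0.0109). Sel1l passed in all 8 limma fits with 1 array left out (adjusted p up to 0.0499) and in 7 of the 10 alternatives that kept all arrays. The 6 adipocyte markers, Adipoq among them, had log2 means of at least 12.15 in Sel1l-/- mice and 12.56 in WT mice. Their mean per array ran from 12.39 to 12.66 in Sel1l-/- mice against 12.70 to 12.80 in WT mice, without overlap, although no single marker passed the threshold. Adipoq had by far the largest log2 difference of them, -0.56 (limma adjusted p = 0.0753), and was the only one whose own arrays did not overlap. The others had differences from -0.12 (Lipe) to -0.04 (Fabp4). The 8 macrophage markers all had positive differences, none past the threshold, and their mean ran from 10.32 to 11.19 in Sel1l-/- mice against 9.82 to 10.79 in WT mice. All 6 endothelial markers had negative differences and 1 of them, Pecam1, fell. All 6 had an unadjusted limma p under 0.05, where 7.85% of all genes were lower at that level. The arrays of 4 lay lower without overlap, as did those of 955 of all 18820 genes. The endothelial mean ran from 9.74 to 10.09 in Sel1l-/- mice against 10.23 to 10.38 in WT mice. Plasma cells, which are rich in coat proteins, were looked for as well. The mean of their 5 markers ran from 5.69 to 6.56 in Sel1l-/- mice against 5.84 to 7.24 in WT mice, and 1 marker had a positive difference. Mzb1, the dimmest, averaged 4.71 in Sel1l-/- mice and 5.03 in WT mice, where the lower quartile of all probe sets was 4.33 to 4.37. Sdc1, the brightest, averaged 8.23 in Sel1l-/- mice and 8.26 in WT mice. Jchain was uneven, at 4.68 to 7.70 in Sel1l-/- mice and 5.03 to 9.13 in WT mice. Means of the 6 fibroblast and progenitor markers ran from 10.54 to 10.95 in Sel1l-/- mice and 10.61 to 11.03 in WT mice, and those of 4 mesothelial markers from 8.92 to 9.61 in Sel1l-/- mice and 9.23 to 10.19 in WT mice. Those of 3 lymphocyte markers ran from 6.60 to 7.37 in Sel1l-/- mice and 6.79 to 7.73 in WT mice, and those of 4 skeletal muscle markers from 5.05 to 5.34 in Sel1l-/- mice and 5.13 to 5.35 in WT mice. The part of these shifts in the results was not tested, and in whole tissue a change in the number of cells cannot be told apart from a change in RNA per cell.

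All 9 measured subunits of the coatomer had positive log2 differences, from 0.03 to 0.71 with a median of 0.37, and 4 of them rose. The lowest, that of Copg2, was -0.02 after median centring. Copb2, the β′ subunit, read 11.32, 11.06, 11.16 and 10.91 in Sel1l-/- mice 1 to 4, against 10.43, 10.37, 10.33 and 10.47 in WT mice 1 to 4. Every Sel1l-/- array stood well clear of the WT arrays, and the change was 1.64-fold (log2 difference 0.71, standard error 0.09, adjusted p = 0.00973). Copa and Cope encode the α and ε subunits, which form the outer layer of the coatomer together with β′. Copa averaged 12.22 ± 0.10 in Sel1l-/- mice and 11.85 ± 0.03 in WT mice (SD, n = 4 each), and rose 1.29-fold (adjusted p = 0.0295). Cope averaged 11.26 ± 0.17 in Sel1l-/- mice and 10.68 ± 0.13 in WT mice (SD, n = 4 each), and rose by 0.58 on the log2 scale (adjusted p = 0.0296). All 3 subunits of the outer layer rose, and whether this layer differed from the inner one was not tested.

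Of the 6 inner-layer genes, Copg1, one of the alternative γ subunits, rose. It read 11.39, 11.15, 11.31 and 11.14 in Sel1l-/- mice 1 to 4, against 10.73, 10.66, 10.65 and 10.79 in WT mice 1 to 4, and rose 1.46-fold (adjusted p = 0.0124). Its paralog Copg2 averaged 10.07 ± 0.15 in Sel1l-/- mice and 10.05 ± 0.07 in WT mice (SD, n = 4 each), a log2 difference of 0.03 with a 95% interval from -0.16 to 0.21. Arcn1, the δ subunit, and Copb1, the β subunit, had log2 differences of 0.33 and 0.38 with arrays that did not overlap, and missed the threshold (adjusted p = 0.0632 and 0.0902). With the replicate number from the titles as a block both passed it (adjusted p = 0.0400 and 0.0431). Over all genes that block called 358 higher and 367 lower, against 195 and 129 without it. Of the 10 alternatives that kept all arrays, this block included, Arcn1 passed in 3 and Copb1 in 2. Neither passed in the 8 fits with 1 array left out or after median centring (adjusted p = 0.106 and 0.137). Neither did so with blocks made from the mouse codes, described below (adjusted p = 0.210 and 0.259 for the code's number). The ζ subunits Copz1 and Copz2 had smaller differences of 0.19 and 0.17 (adjusted p = 0.170 and 0.368).

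The GTPase Arf4 and the exchange factor Gbf1, which activates Arf proteins at the early Golgi so that coatomer can bind, both rose. Arf4 had the smallest p of the set. It read 12.09, 11.89, 11.94 and 11.80 in Sel1l-/- mice 1 to 4, against 11.32, 11.26, 11.21 and 11.18 in WT mice 1 to 4, a 1.61-fold change (log2 difference 0.69, standard error 0.07, adjusted p = 0.00619). The lowest Sel1l-/- array lay well above the highest WT array. Gbf1 read 10.72, 10.48, 10.55 and 10.36 in Sel1l-/- mice 1 to 4, against 10.09, 9.77, 9.81 and 9.84 in WT mice 1 to 4, and rose 1.57-fold (adjusted p = 0.0196). The groups did not overlap here either, with WT mouse 1 nearest to the Sel1l-/- mice.

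In the COPII coat, 2 of 8 genes rose and 7 had positive differences, with a median of 0.29. Sec23a, an inner-coat subunit that makes Sar1 hydrolyse its GTP, read 11.54, 11.19, 11.19 and 11.01 in Sel1l-/- mice 1 to 4, against 10.70, 10.68, 10.63 and 10.68 in WT mice 1 to 4. The WT arrays lay close together and the Sel1l-/- arrays spread more widely above them, for a 1.48-fold rise (log2 difference 0.57, standard error 0.10, adjusted p = 0.0366). Sec31a, the outer-coat subunit, averaged 11.77 ± 0.17 in Sel1l-/- mice and 11.32 ± 0.05 in WT mice (SD, n = 4 each) and rose 1.37-fold (adjusted p = 0.0437). Its partner Sec13 had a log2 difference of 0.33 with 1 Sel1l-/- array inside the WT range (adjusted p = 0.160).

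Sec24 proteins bind the cargo, and their 4 genes did not all show the same values. Sec24a had a log2 difference of 0.39 without overlap and just missed the threshold (adjusted p = 0.0521), which it passed with the replicate block (adjusted p = 0.0267). It passed in 5 of the 10 alternatives with all arrays, and in 0 of the 8 fits with 1 array left out. Median centring (adjusted p = 0.0837) and the blocks from the mouse codes (0.213 for the number) were among those it did not pass. Sec24d had a log2 difference of 0.25, also without overlap (adjusted p = 0.108), and Sec24c one of 0.08 (adjusted p = 0.567). Sec24b averaged 9.78 ± 0.03 in Sel1l-/- mice and 9.80 ± 0.15 in WT mice (SD, n = 4 each), a difference of -0.02 with a 95% interval from -0.20 to 0.16. Sec23b, the paralog of Sec23a, had a difference of 0.22 (interval 0.02 to 0.42, adjusted p = 0.288).

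None of the 4 genes that start COPII assembly passed the limma threshold, and 2 had an unadjusted p under 0.05. All 4 differences were positive, at 0.23 for Sar1a, 0.17 for Sar1b, 0.42 for Sec16a and 0.25 for Sec16b. The scaffold gene Sec16a had Sel1l-/- arrays above all WT arrays (adjusted p = 0.0738) and passed with the replicate block (adjusted p = 0.0400). It passed in 3 of the 10 alternatives with all arrays, and in 1 of the 8 fits with 1 array left out. Median centring (adjusted p = 0.1155) and the blocks from the mouse codes (0.222 for the number) were among those it did not pass. Sec16b was the most variable of the 4, at 9.08, 8.74, 9.04 and 8.40 in Sel1l-/- mice 1 to 4, against 8.71, 8.45, 8.60 and 8.50 in WT mice 1 to 4, so that its groups overlapped.

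**Figure D2:**
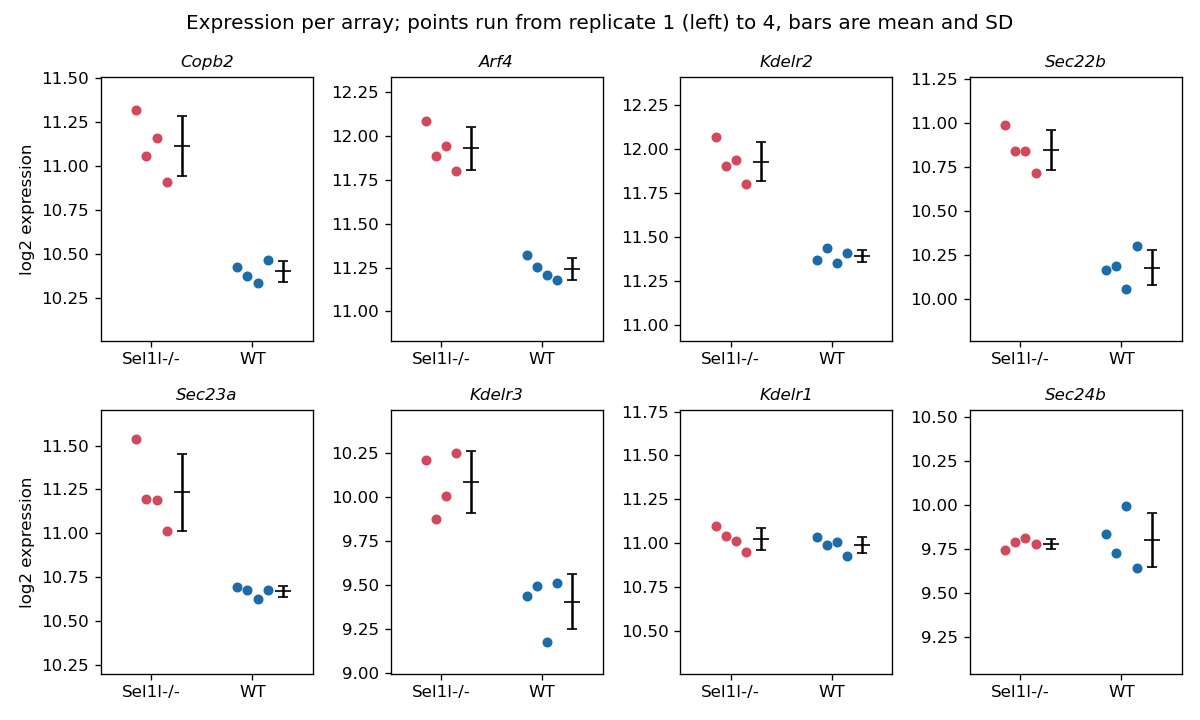
Log2 expression on each array for 8 genes, Sel1l-/- mice to the left of WT mice; points are replicates 1 to 4 from left to right, bars are the mean and SD of 4 mice, and each panel spans the same height. Copb2, Arf4, Kdelr2, Sec22b, Sec23a and Kdelr3 show no overlap between groups, while Kdelr1 and Sec24b overlap.

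KDEL receptors return escaped chaperones to the ER by binding the signal at their end. Kdelr2 read 12.07, 11.90, 11.94 and 11.80 in Sel1l-/- mice 1 to 4, against 11.37, 11.44, 11.35 and 11.41 in WT mice 1 to 4, and rose 1.45-fold (log2 difference 0.54, standard error 0.07, adjusted p = 0.00978). Kdelr3 read 10.21, 9.87, 10.01 and 10.25 in Sel1l-/- mice 1 to 4, against 9.44, 9.49, 9.17 and 9.51 in WT mice 1 to 4, and rose by 0.68 on the log2 scale (standard error 0.11, adjusted p = 0.0235). The groups of both genes were apart on every array. Kdelr1 averaged 11.03 ± 0.06 in Sel1l-/- mice and 10.99 ± 0.05 in WT mice (SD, n = 4 each), and its difference of 0.04 had a 95% interval from -0.09 to 0.16 (adjusted p = 0.825). That interval lies below those of Kdelr2, 0.38 to 0.69, and Kdelr3, 0.43 to 0.93.

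The p24 proteins, cargo adaptors that travel in both kinds of coat, were divided. Of 7 measured, Tmed3 and Tmed9 rose, Tmed2, Tmed7 and Tmed10 had positive differences between 0.09 and 0.14, and Tmed4 and Tmed5 had negative ones. The dimmer of the 2 Tmed10 probe sets ran from 10.08 to 10.18 in Sel1l-/- mice against 9.81 to 9.98 in WT mice, without overlap. With the mean of both sets the difference of Tmed10 was 0.15 (limma adjusted p = 0.221). Tmed3 read 9.59, 9.64, 9.41 and 9.43 in Sel1l-/- mice 1 to 4, against 8.63, 8.91, 8.83 and 9.15 in WT mice 1 to 4, a 1.56-fold rise (log2 difference 0.64, standard error 0.11, adjusted p = 0.0303). The WT arrays spread more than the Sel1l-/- arrays and stayed below them. Tmed9 averaged 8.56 ± 0.07 in Sel1l-/- mice and 8.23 ± 0.04 in WT mice (SD, n = 4 each) and rose 1.25-fold (adjusted p = 0.0300). Tmed4 averaged 11.31 ± 0.13 in Sel1l-/- mice and 11.53 ± 0.11 in WT mice (SD, n = 4 each), a log2 difference of -0.22 (adjusted p = 0.281). Tmed5 had one of -0.13 (adjusted p = 0.560).

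None of the 6 lectin and other cargo receptors passed the limma threshold, and 2 had an unadjusted p under 0.05. Those were Lman1, the mannose-binding receptor that with Mcfd2 carries clotting factors out of the ER, and Mcfd2 itself. Their log2 differences were 0.18 (95% interval 0.05 to 0.32, adjusted p = 0.182) and 0.25 (0.07 to 0.43, adjusted p = 0.186), both without overlap between groups. Surf4, a receptor for soluble cargo, had one of 0.10 (interval -0.03 to 0.23). The lectin Lman2 and the cycling proteins Ergic1 and Ergic3 had differences of -0.00, 0.10 and -0.10. Sec22b, a SNARE of this route, read 10.99, 10.84, 10.84 and 10.71 in Sel1l-/- mice 1 to 4, against 10.16, 10.19, 10.05 and 10.30 in WT mice 1 to 4, and rose 1.59-fold (log2 difference 0.67, standard error 0.08, adjusted p = 0.00775). Bet1, which pairs with it in fusion at the Golgi, had a log2 difference of 0.44 without overlap (adjusted p = 0.0589).

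Paralogs within a family were set against each other on the same arrays, as 10 pairs chosen after the values were seen. The difference between the changes of Kdelr3 and Kdelr1 was 0.65, that of Copg1 and Copg2 0.52, that of Kdelr2 and Kdelr1 0.50, that of Sec24a and Sec24b 0.41 and that of Sec23a and Sec23b 0.35. In each of these 5 pairs the log2 ratio of the paralogs did not overlap between the genotypes, which is a description without a test because of how the pairs were chosen. The remaining pairs differed by 0.02 (Copz1 and Copz2) to 0.18 (Sec24d and Sec24c), and their ratios overlapped.

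**Figure D3:**
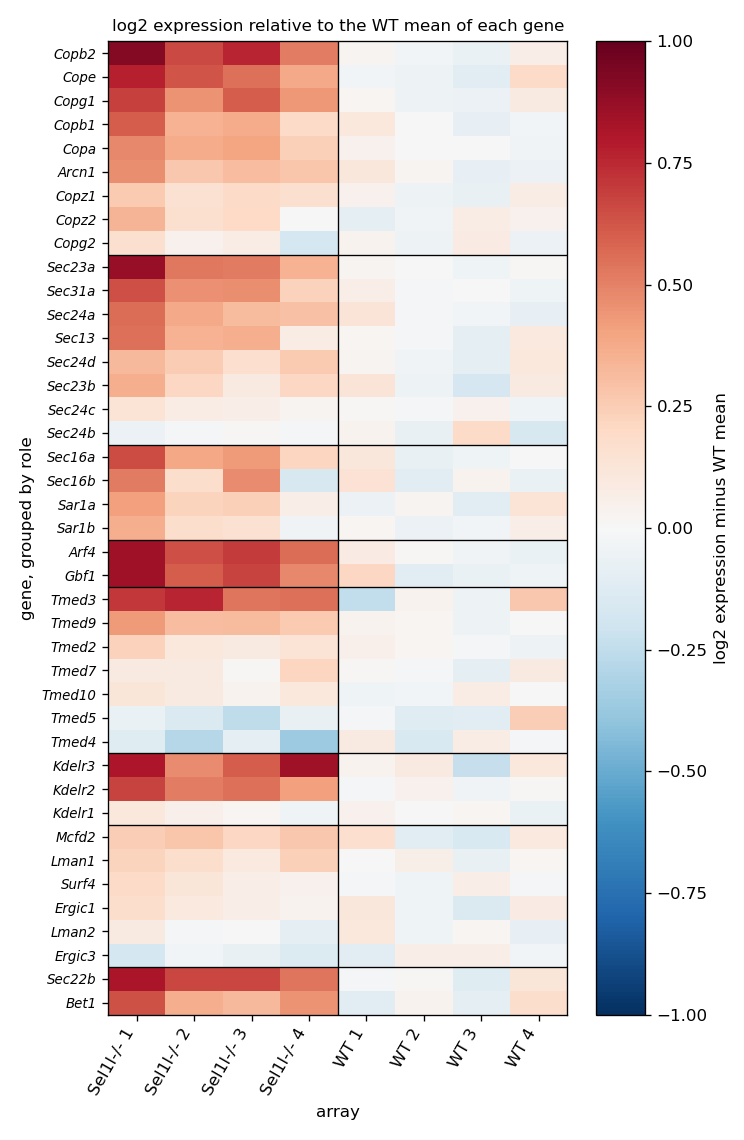
Log2 expression of each of the 41 genes on each array, relative to the WT mean of that gene, with Sel1l-/- mice 1 to 4 on the left and WT mice 1 to 4 on the right, and lines between the roles. Sel1l-/- mouse 1 has the highest value of its group for 33 genes and Sel1l-/- mouse 4 the lowest for 26.

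The Sel1l-/- mice also differed among themselves. The mean of the 41 genes was 10.91, 10.77, 10.78 and 10.69 in Sel1l-/- mice 1 to 4, against 10.53, 10.48, 10.46 and 10.53 in WT mice 1 to 4. Mouse 1 had the highest of the 4 Sel1l-/- values for 33 genes and mouse 4 the lowest for 26. These were also the mice with the lowest and the highest Sel1l signal of the group, 9.56 and 10.07. Mouse 4 further had the highest macrophage mean of all arrays, 11.19, and the lowest adipocyte mean, 12.39, and the part of either in these differences was not tested. Without mouse 4, all 13 calls were kept and Sec13 and Sec16a were added.

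With 1 array fewer the calls thinned out. Of the 13 genes that rose, 7 passed without Sel1l-/- 1, 6 without Sel1l-/- 2 and 4 without Sel1l-/- 3. Likewise 6 passed without WT 1, 5 without WT 2, 5 without WT 3 and 9 without WT 4. Copb2, Arf4, Kdelr2 and Sec22b passed in all 8 such fits, with adjusted p up to 0.0428, 0.0337, 0.0428 and 0.0427. Copg1 passed in 7 (up to 0.0546, without Sel1l-/- 3), Gbf1 in 4 (0.0690, without Sel1l-/- 3) and Kdelr3 in 3 (0.0722, without WT 1). Cope, Sec23a and Tmed3 passed in 2 each (up to 0.104, 0.108 and 0.105, without Sel1l-/- 2). Copa, Sec31a and Tmed9 passed in 1 each (up to 0.1003 without Sel1l-/- 3, and 0.133 and 0.0974 without Sel1l-/- 2). Over all genes such fits called 66 to 244 higher and 31 to 140 lower, against 195 and 129 with all arrays.

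Each mouse has a code of a letter and a number that the labels do not explain, and letter F alone holds both genotypes. With the letter or the number as a block none of the 41 genes passed in limma, while 18 and 23 had an unadjusted p under 0.05, as did 9.93% and 11.5% of all genes, and over all genes 20 and 11 passed. Differences of the 13 genes then ran from 0.36 to 0.81 with the letter and from 0.32 to 0.73 with the number, against 0.33 to 0.71 without a block. Within letter F, which holds WT 4 and Sel1l-/- 1 and 2, 37 of 41 differences were positive with a median of 0.21. Within the numbers 5, 7 and 9 the positive differences numbered 34, 39 and 35, with medians of 0.22, 0.33 and 0.36. Arf4, for example, differed by 0.81 within letter F and by 0.69, 0.69 and 0.68 within the numbers. With each array centred on the median of all its probe sets, which is higher in every Sel1l-/- array, 8 of the 13 genes passed and Copa, Cope, Sec31a, Sec23a and Tmed9 did not. The split over all genes was then 119 higher and 154 lower.

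Promoters of the set were searched for elements known from the unfolded protein response, and the stretch around the gene start is shown for the 7 that held one. RefSeq promoters of build GRCm38.p6 (250 bases before to 50 after the gene start, the first listed for each gene) were matched for 36 of the 41 genes, and both strands were read. For 3 of these genes, Sec16b, Sec23b and Sec31a, another promoter was listed and was not searched. The core of the unfolded protein response element (UPRE), TGACGTGG or CCACGTCA on the other strand, is a sequence that XBP1 and ATF6 are known to bind. It was found in 7 of the 36 promoters (19.4%), in 0.607% of all 27025 promoters, and in 0.893% of those of the brighter 50% of tested genes. The windows below run from 60 bases before to 20 bases after the gene start on the strand of the gene, with the core in capitals. They lie at chr7:114254661-114254740 (minus strand) for Copb1, chr9:98563671-98563750 (plus) for Copb2, chr19:46152498-46152577 (plus) for Gbf1, chr15:79516348-79516427 (plus) for Kdelr3, chr1:157506736-157506815 (plus) for Sec16b, chr12:59011998-59012077 (minus) for Sec23a and chr3:123267436-123267515 (plus) for Sec24d.
Copb1: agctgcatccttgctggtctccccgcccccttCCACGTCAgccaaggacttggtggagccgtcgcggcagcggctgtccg
Copb2: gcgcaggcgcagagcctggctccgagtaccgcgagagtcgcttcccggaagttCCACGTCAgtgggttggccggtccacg
Gbf1: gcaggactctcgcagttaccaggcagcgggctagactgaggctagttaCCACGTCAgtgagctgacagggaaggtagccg
Kdelr3: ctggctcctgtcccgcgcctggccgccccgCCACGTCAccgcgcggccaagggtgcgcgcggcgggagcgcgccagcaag
Sec16b: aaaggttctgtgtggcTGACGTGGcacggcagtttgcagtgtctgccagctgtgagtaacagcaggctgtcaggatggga
Sec23a: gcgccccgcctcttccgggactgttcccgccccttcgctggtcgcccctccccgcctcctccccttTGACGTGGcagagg
Sec24d: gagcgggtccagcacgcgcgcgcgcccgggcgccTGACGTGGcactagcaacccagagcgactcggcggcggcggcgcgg

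For contrast, the same window is given for Kdelr1 (chr7:45872780-45872859, plus) and Sec23b (chr2:144556169-144556248, plus), family members of Kdelr3 and Sec23a whose searched promoters do not hold these letters. They are examples, and values for other families are given below.
Kdelr1: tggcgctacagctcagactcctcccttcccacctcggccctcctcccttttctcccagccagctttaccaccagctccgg
Sec23b: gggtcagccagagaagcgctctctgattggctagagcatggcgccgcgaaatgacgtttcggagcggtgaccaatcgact

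In 6 of the 7 promoters the core began between 44 and 7 bases before the gene start, and in Sec23a it began 6 bases after it. All 7 genes had positive log2 differences, with a median of 0.57, against a median of 0.22 for the 29 genes whose promoter lacked the core. Within families the order varied. Kdelr3 (0.68) and Sec23a (0.57) lay above Kdelr1 (0.04) and Sec23b (0.22), whose searched promoters lack the core. Sec16b and Sec24d (0.25 each) lay below Sec16a (0.42) and Sec24a (0.39), which also lack it. Sec24d lay above Sec24c (0.08) and Sec24b (-0.02), again without the core. Whether the core goes with the difference was not tested. Among all 111 tested genes with the core the median was 0.04 and 68 were positive, against a median of -0.00 for those without it, and in the brighter 50% the median was 0.06 with 43 of 68 positive. Copb2, Kdelr3, Gbf1 and Sec23a passed the threshold and Copb1, Sec24d and Sec16b did not. Of the 9 other genes that rose, 8 had a promoter to search and none of those held the core, Arf4 and Sec22b among them. The UPRE core contains the shorter letters CCACG, which were found in 27 of the 36 promoters (75%) and in 32.7% of all promoters. The share of CCACG among the brighter 50% of tested genes, where the set lies, was not computed. The ER stress elements ERSE (CCAAT and CCACG with 9 bases between) and ERSE-II (ATTGG and CCACG with 1 base between) were in none of the 36 windows, and in 0.13% and 0.037% of all promoters. The letters TGACGTCA, which are like a cyclic AMP response element, were in 1 of the 36, that of Cope, and in 1.88% of all. A match here describes letters in a window, and binding was not measured.

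**Figure D4:**
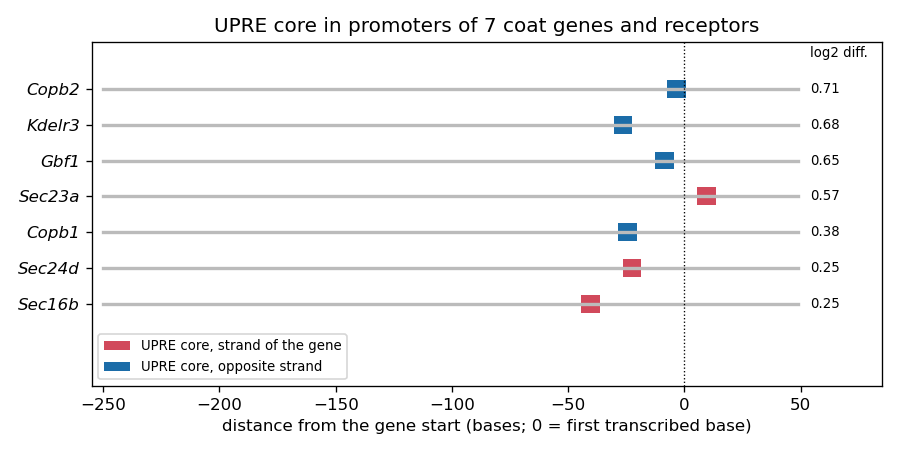
Position of the UPRE core in the 7 promoters that hold it, as distance in bases from the gene start, with the log2 difference (Sel1l-/- minus WT) of each gene at the right. The cores lie near the gene start, from 44 bases before it in Sec16b to 6 bases after it in Sec23a.

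Other genes of ER to Golgi transport were taken from a separate list of 58, chosen with earlier results of these data known, of which 56 were measured. Of these, 9 rose and none fell by limma, where 1.04% and 0.685% of all genes did. At an unadjusted p under 0.05, 22 were higher and 1 lower, where 7.15% and 7.85% of all genes were, and the median log2 difference was 0.12. Mia3, which helps bulky cargo such as collagens into COPII vesicles, read 9.86, 9.62, 9.66 and 9.47 in Sel1l-/- mice 1 to 4, against 9.09, 8.92, 8.95 and 8.89 in WT mice 1 to 4, and rose 1.61-fold (adjusted p = 0.0103). The Sel1l-/- arrays all lay above the WT arrays, and Mia3 also passed in all 8 fits with 1 array left out (up to 0.0467). Yipf5, a membrane protein of the early Golgi, rose 1.52-fold (adjusted p = 0.0235), Gosr2, a Golgi SNARE, rose by 0.59 on the log2 scale (adjusted p = 0.0336) and Stx5a, the syntaxin that Sec22b and Bet1 join in fusion, rose 1.23-fold (adjusted p = 0.0287). Those passed in 3, 2 and 1 of the 8 fits with 1 array left out (up to 0.0808 and 0.102 without Sel1l-/- 2, and 0.0989 without Sel1l-/- 3). With centred arrays 2 of the 56 rose, and with either part of the mouse code as a block none did. UPRE cores were in 3 of the 47 promoters matched, those of Arf1, Scfd1 and Stx5a.

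**Figure D5:**
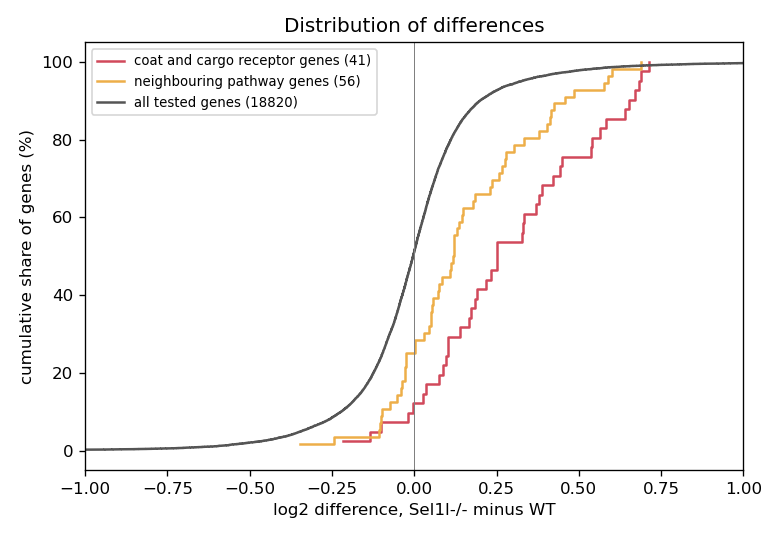
Cumulative share of genes by log2 difference (Sel1l-/- minus WT, x axis cropped at -1 and 1) for the 41 coat and cargo receptor genes, the 56 neighbouring pathway genes and all 18820 tested genes. The medians are 0.25, 0.12 and -0.00.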

How the data were processed

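Total RNA from white adipose tissue of 8 mice was converted to whole-transcript cDNA and labelled with biotin for 1-colour arrays, per the labels' protocols. The deposited values are log2 expression, made by the authors with RMA per the submitters' processing notes. That they are on a log2 scale follows from their range (1.72 to 13.9), and no version, filter or build was given in the sources used here. RMA makes the arrays' distributions alike and compresses changes of dim probe sets. Array medians were 6.10 to 6.14 in Sel1l-/- and 6.05 to 6.08 in WT arrays. Gene names come from the platform annotation, where of 35556 probe sets 21218 had 1 gene, 1881 several and 12457 were not listed. The brightest probe set of each gene gave 18820 genes. Tmed2 has 3 probe sets and Tmed10 2; the other measured genes of the set have 1.

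Single genes were tested by two-sided limma (3.58.1, R 4.3.3) over the 8 arrays, with a prior of 2.60 degrees of freedom, and limma was tested on simulated data. Its p-values were adjusted across the 18820 genes by Benjamini-Hochberg, and genes under 0.05 were called. Figures were drawn with matplotlib 3.10.9. The genes of the set, the lists, roles, motifs and markers were chosen with earlier results of these data known, and the paralog pairs after the values were seen. Named were all measured genes of the set, Sel1l and the 4 neighbouring pathway genes with the smallest p. Replicate numbers 1 to 4 come from the titles. Mice sharing a replicate number deviated together from their group means, with correlations of 0.52, 0.11, 0.36 and 0.52. Other pairs of mice reached 0.33. The replicate number was also used as a block on the ground of these data, since the titles state no pairing. Nothing says that the mice came from separate litters or cages.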

Additional observations from a re-analysis of the deposited data

How the results depend on the processing

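No gene of the set fell past the threshold under any of the 18 alternatives, and 33 of the 41 genes had a positive difference under each of them. The 13 rises became 8 with arrays centred on their medians, 6 in an ordinary test without moderation, 0 with the mouse code's letter as a block and 0 with its number, and 4 to 15 when 1 array was left out. The replicate block gave 17, which are the 13 with Copb1, Arcn1, Sec24a and Sec16a, and array weights 18. Centring on the median of the tested genes, chosen after seeing the data, gave 15. Neighbouring pathway genes that rose, 9 with all arrays, were 2 centred, 3 without moderation, 0 with the letter and 0 with the number, and 1 to 9 with 1 array left out. Of these genes 1 fell when the arrays were centred, and 1 without the dimmer 50% of genes, Tmed8, named after its values were seen.

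Over all genes, 195 higher and 129 lower became 119 and 154 centred, 87 and 37 without moderation, 347 and 219 with array weights, 358 and 367 with the replicate block, 7 and 13 with the letter, and 8 and 3 with the number, with 66 to 244 higher and 31 to 140 lower when 1 array was left out. Signs turned for 5 genes, none past the threshold. The log2 difference of Copg2 was -0.0167 centred and -0.0207 to 0.0934 with 1 array left out, that of Kdelr1 -0.0061 centred, and that of Tmed7 -0.0005 with the letter. Sec24b gave 0.00 with array weights, 0.12 with the letter, 0.0074 centred on the tested genes, and -0.0720 to 0.0454 with 1 array left out. Lman2 gave 0.0038 with array weights, 0.12 with the letter, 0.0034 with the number, 0.0236 centred on the tested genes, and -0.0331 to 0.0320 with 1 array left out. Fits with 1 array fewer or a block have fewer residual degrees of freedom, and the replicate block with its 17 calls is among them. The cause of the changes in calls and signs was not tested. No array stood apart from its group for any gene of the set or Sel1l by Dixon's test.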
